A study of Mus musculus with 16 samples.

Results

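DNA methylation and demethylation enzymes were described in growing mouse oocytes that had lost histone deacetylase genes. The set held 10 genes, Dnmt1, Dnmt3a, Dnmt3b, Dnmt3l, Uhrf1, Tet1, Tet2, Tet3, Tdg and Zfp57. They were chosen by symbol, as the probe sets to which the platform annotation gives exactly 1 of these names, by a rule that uses no measured value, although the genes were proposed with earlier results of these data known. They carry 16 probe sets, of 21218 (18820 genes) on the array with exactly 1 gene symbol and 35556 in all. A probe set is a group of short probes that together read 1 transcript region. Dnmt1, Dnmt3a, Dnmt3b, Dnmt3l, Uhrf1, Tet2 and Zfp57 had 1 probe set each, Tet3 had 2, Tet1 had 3 and Tdg had 4.

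Oocytes came from ovaries of C57BL/6 mice at 12 days of age, and each sample was RNA pooled from 80 oocytes on an Affymetrix Mouse 1.1 ST array. The 4 genotypes were conditional knockout of both Hdac1 and Hdac2 (Hdac1/2 double knockout), conditional knockout of Hdac1, conditional knockout of Hdac2, and wild type, with 4 biological replicates each. The conditional alleles were removed by Zp3-Cre, a recombinase driven by the promoter of a zona pellucida gene, which acts in the oocyte once it has begun to grow and leaves the surrounding somatic cells intact. The labels do not say whether the wild-type mice carried conditional alleles or the transgene. Because each array read a pool of amplified RNA, a change in RNA per oocyte and a change in the mix of oocyte stages cannot be told apart.

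Methyl groups on cytosine are set de novo by DNMT3A and DNMT3B, with DNMT3L as a partner that has no enzyme activity of its own, and are copied after replication by DNMT1, which UHRF1 brings to hemimethylated sites. TET enzymes oxidise methylcytosine, and TDG excises the most oxidised forms for repair. In mouse, growing oocytes acquire most of their DNA methylation, maternal imprints included, through DNMT3A and DNMT3L, and the egg carries stores of DNMT1, TET3 and ZFP57 into the embryo.

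The 2 members that moved furthest apart among the de novo group, Dnmt3b and Dnmt3l, are shown here by the 250 bases before their annotated transcription starts, from RefSeq on build GRCm38.p6, 5′ to 3′ on the gene's own strand, with each CG dinucleotide in capitals. Dnmt3b has 1 window, chr2:153649199-153649448 on the plus strand. Dnmt3l has 3, all on the plus strand: chr10:78042037-78042286, chr10:78049592-78049841 and chr10:78055085-78055334. The labels do not say which start these oocytes use.
Dnmt3b: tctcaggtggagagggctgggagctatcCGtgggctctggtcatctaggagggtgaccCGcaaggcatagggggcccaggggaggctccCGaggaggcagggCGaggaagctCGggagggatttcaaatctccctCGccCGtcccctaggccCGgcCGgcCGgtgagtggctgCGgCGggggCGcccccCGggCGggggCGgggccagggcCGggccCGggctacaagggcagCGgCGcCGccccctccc
Dnmt3l, start 1: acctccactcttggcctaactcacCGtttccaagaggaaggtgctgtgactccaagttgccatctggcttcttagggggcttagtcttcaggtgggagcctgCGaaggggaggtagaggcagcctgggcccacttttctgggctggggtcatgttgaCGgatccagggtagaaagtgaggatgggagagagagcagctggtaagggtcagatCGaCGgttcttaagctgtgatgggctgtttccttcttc
Dnmt3l, start 2: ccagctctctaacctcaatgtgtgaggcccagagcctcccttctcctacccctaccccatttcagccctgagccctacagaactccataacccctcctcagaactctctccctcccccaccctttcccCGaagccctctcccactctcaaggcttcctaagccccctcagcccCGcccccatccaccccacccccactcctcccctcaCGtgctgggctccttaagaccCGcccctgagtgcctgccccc
Dnmt3l, start 3: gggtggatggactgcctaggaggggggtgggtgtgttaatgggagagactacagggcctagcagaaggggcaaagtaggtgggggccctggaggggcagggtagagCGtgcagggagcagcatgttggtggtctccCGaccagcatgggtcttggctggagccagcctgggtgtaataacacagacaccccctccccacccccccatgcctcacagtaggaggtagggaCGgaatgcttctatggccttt

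The Dnmt3b window holds 21 CG dinucleotides, more than 83.7% of the 32851 windows of that length, whose median was 6. It holds the GC box GGGCGG, searched on both strands, at 3 places, and 32.7% of windows hold at least 1. The Dnmt3l windows hold 5, 4 and 3 CG dinucleotides, and the second of them holds 2 GC boxes and 1 E-box CACGTG, a palindrome found in 6.02% of windows. The pair thus differ in CG content by these letters, which describe the sequence alone.

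Values are the deposited log2 intensities, so a difference of 1 is a doubling, and genotypes are compared within a probe set. Across probe sets, levels serve only to rank or sort by brightness and to sum cell type markers. All 16 arrays were fitted together with limma, a linear model that shares the estimate of spread across genes. A probe set was called at an adjusted p under 0.05 (Benjamini-Hochberg over the 21218 probe sets). In the double knockout against wild type 10 of the 16 member probe sets were called, 5 higher and 5 lower, where 38.3% of all tested probe sets were called (18.5% higher and 19.8% lower). By gene, Dnmt3b and Tdg rose, Dnmt3l, Tet1, Tet2 and Tet3 fell, and Dnmt1, Dnmt3a, Uhrf1 and Zfp57 were not called. Calls were more frequent among bright probe sets: of the 10 members above the median level of tested probe sets 6 were called, where 61.7% of the 10609 such probe sets were when adjusted over these alone, so the share called among members was near the background. Over all tested probe sets the deposited values gave 3924 higher and 4198 lower, centring each array on its median gave 2895 and 6506, and quantile normalization gave 3382 and 5025. Between the double knockout and wild type 11 member probe sets did not overlap, where 35.8% of all did not, and 7 were called with a change of at least 1.4-fold, where 16.4% of all were. Both counts include the 4 Tdg probe sets, which are not independent readings. By gene, the 7 are Dnmt3b, Dnmt3l, Tet1 and Tdg. The share among bright probe sets was not taken for these measures. No member called in the double knockout turned its direction under either scaling.

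**Figure D1:**
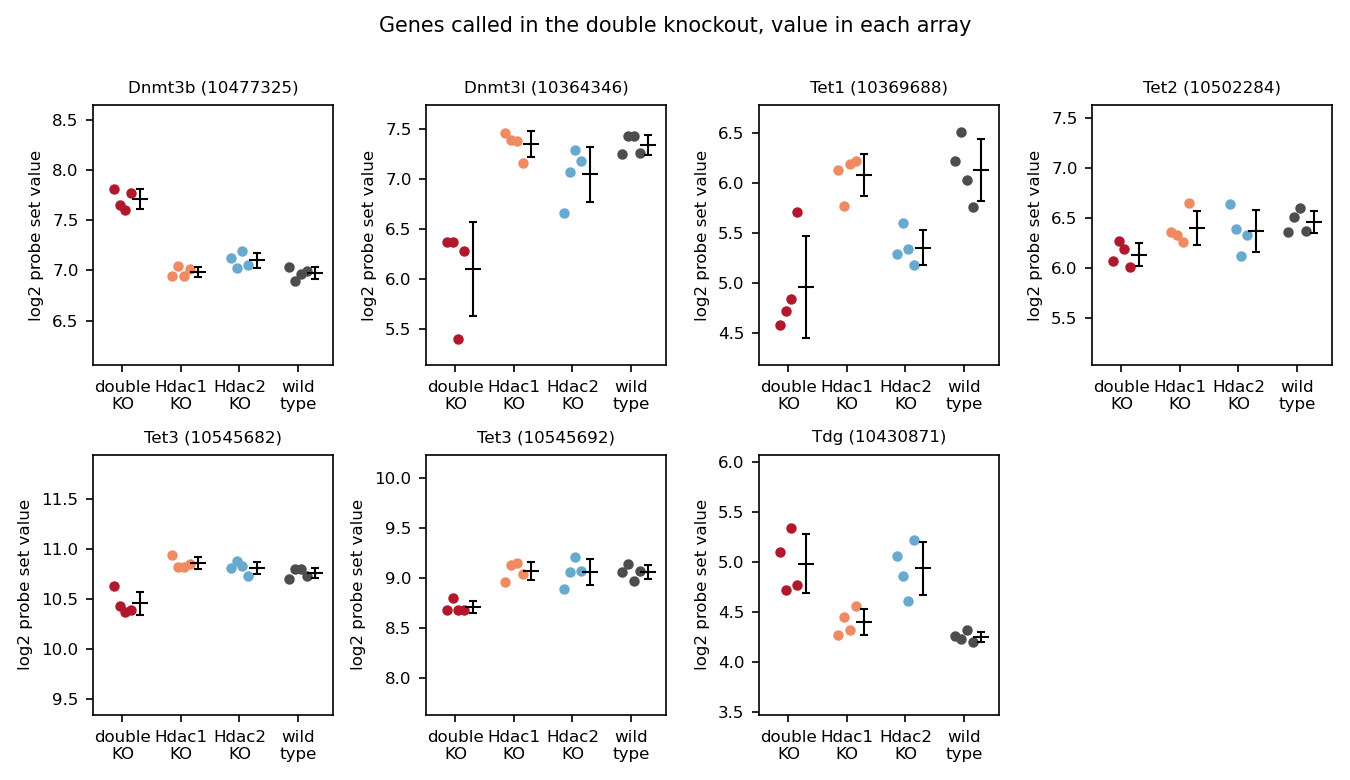
Log2 value of each array (points) with the mean and SD of its 4 arrays (bars) for the members called in the double knockout, by genotype; for Tdg the brightest of its 4 probe sets is drawn, and each panel spans its own range of levels. Dnmt3b stands higher in the double knockout than in the other 3 genotypes, Dnmt3l and Tet3 stand lower there, and Tdg is high and Tet1 low in both genotypes that lack Hdac2.

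Hdac1 and Hdac2 themselves were read first. The brighter Hdac1 probe set lay between 7.54 and 7.75 in double knockout arrays and between 6.40 and 6.83 in Hdac1 knockout arrays, against 9.23 to 9.35 in wild type, so all arrays labelled as lacking Hdac1 were low. Its differences were -1.62 ± 0.08 (limma SE, adjusted p = 2.38e-10) in the double and -2.66 ± 0.08 (3.97e-12) in the Hdac1 knockout. The single Hdac2 probe set differed from wild type by -0.21 (double knockout) and -0.10 (Hdac2 knockout; limma adjusted p = 0.00274 and 0.33). Whether its probes lie in the deleted exons is not known, so this probe set is no check of the Hdac2 label. Hdac1 itself was higher by 0.36 in the Hdac2 knockout (limma adjusted p = 0.0172).

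Dnmt3b, a de novo methyltransferase, rose in the double knockout alone of the 3 knockouts. Its log2 values were 7.82, 7.66, 7.60 and 7.78 in the double knockout arrays, 6.95, 7.04, 6.94 and 7.01 in Hdac1 knockout, 7.13, 7.03, 7.20 and 7.05 in Hdac2 knockout, and 7.04, 6.89, 6.96 and 6.997 in wild type. Every double knockout array lay above every array of the other 3 genotypes. The rise over wild type was 0.74 ± 0.06 (limma SE), which is 1.67-fold, with an adjusted p of 6.03e-08. Over the Hdac2 knockout it was 0.61 (limma adjusted p = 8.5e-07), and over the Hdac1 knockout 0.73 (7.29e-08). Its difference from wild type in the Hdac2 knockout was 0.13, with a 95% interval of 0.00273 to 0.256 and a limma adjusted p of 0.257.

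Dnmt3l, the partner that stimulates the de novo enzymes, fell in the double knockout. The 4 double knockout arrays read 6.37, 6.37, 5.41 and 6.29, Hdac1 knockout 7.46, 7.39, 7.38 and 7.16, Hdac2 knockout 6.66, 7.07, 7.29 and 7.18, and wild type 7.25, 7.43, 7.43 and 7.26. The double knockout arrays all lay below the lowest array of any other genotype, and array 3 of them stood well below the rest. Dnmt3l dropped to 42.4% of the wild-type level (log2 difference -1.24 ± 0.18, limma adjusted p = 3.08e-05), and to 52.0% of the Hdac2 knockout level. Without double knockout array 3 the difference from wild type was -1.005, still called. The Hdac2 knockout averaged -0.29 against wild type with overlapping arrays (limma adjusted p = 0.411), and the Hdac1 knockout differed by 0.00 with an interval of -0.373 to 0.382.

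Dnmt3a, the de novo enzyme that works with DNMT3L in mouse oocytes, was not called in any comparison. It read 9.80, 9.62, 9.79 and 9.61 in the double knockout, 9.69 to 9.84 in Hdac1 knockout, 9.53 to 9.69 in Hdac2 knockout, and 9.60, 9.68, 9.76 and 9.66 in wild type. The double knockout and wild-type arrays overlapped, and the 95% interval of their difference ran from -0.0989 to 0.158 (limma adjusted p = 0.756). The de novo group therefore held 1 gene that rose, 1 that fell and 1 that was not called.

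Dnmt1, the maintenance enzyme, read 12.235, 12.235, 12.182 and 12.231 in the double knockout, against 12.293, 12.269, 12.261 and 12.286 in wild type. The groups did not overlap, but the difference was small, -0.06 with a 95% interval of -0.144 to 0.0303, or 96.1% of the wild-type level. It was not called on the deposited values (limma adjusted p = 0.318), while the two-sided exact permutation test of the 4 against 4 arrays gave 0.0286, the smallest p this design allows. With each array centred on its median, which moved the median over all genes to -0.101, Dnmt1 was called at -0.15 (limma adjusted p = 0.0131), and with quantile normalization at -0.11 (limma adjusted p = 0.0428). The Hdac1 and Hdac2 knockouts each differed from wild type by 0.01. Double against Hdac1 knockout gave -0.07 for Dnmt1, not called (limma adjusted p = 0.192). With limma's variance trend and robust estimate of spread that difference was called (-0.07, limma adjusted p = 0.0267). It was also called after centring (-0.15, limma adjusted p = 0.0128).

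Uhrf1, which brings DNMT1 to newly copied DNA, lay between 11.54 and 11.64 in the double knockout, between 11.46 and 11.52 in Hdac1 knockout, between 11.54 and 11.63 in Hdac2 knockout and between 11.49 and 11.61 in wild type. The double knockout difference from wild type was 0.04 with a 95% interval of -0.0552 to 0.140 (limma adjusted p = 0.531). The order of genotypes put the Hdac1 knockout lowest, without overlap with the double knockout, but at 0.09 that difference was not called (limma adjusted p = 0.132). With limma's variance trend and robust estimate it was called (0.09, limma adjusted p = 0.0343).

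Zfp57, a zinc finger protein that protects imprints in the early embryo, spanned 11.767 to 11.845 in the double knockout, 11.823 to 11.910 in Hdac1 knockout, 11.779 to 11.854 in Hdac2 knockout and 11.731 to 11.815 in wild type. Its double knockout difference was 0.04 with a 95% interval of -0.0537 to 0.135 (limma adjusted p = 0.533). The Hdac1 knockout arrays all lay above wild type, by 0.09 on average, with a limma adjusted p of 0.573.

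**Figure D2:**
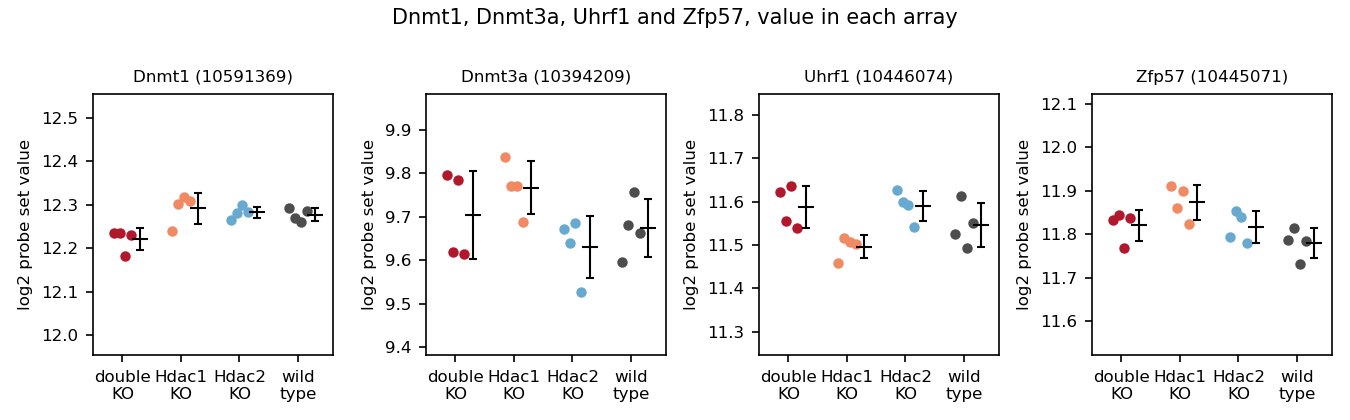
Log2 value of each array (points) with the mean and SD of its 4 arrays (bars) for Dnmt1, Dnmt3a, Uhrf1 and Zfp57, by genotype; each vertical axis covers under 1 log2 unit. The 4 Dnmt1 values of the double knockout, 12.182 to 12.235, lie just under the wild-type values of 12.261 to 12.293, and the other 3 genes overlap between these groups.

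Among the TET enzymes, the brightest Tet1 probe set (10369688) fell in both genotypes that lack Hdac2. It read 4.58, 4.72, 4.84 and 5.71 in the double knockout, 6.13, 5.77, 6.19 and 6.22 in Hdac1 knockout, 5.29, 5.60, 5.34 and 5.19 in Hdac2 knockout, and 6.22, 6.51, 6.03 and 5.76 in wild type. Double knockout array 4 was high among its group and only just below the lowest wild-type array. The level fell to 44.5% of wild type in the double knockout (-1.17 ± 0.20, limma adjusted p = 0.000215) and to 58.5% in the Hdac2 knockout (-0.77 ± 0.20, limma adjusted p = 0.0365). The Hdac2 knockout call was lost in 6 of the 8 fits that each left out 1 array, with adjusted p up to 0.105. The double knockout differed from the Hdac2 knockout by -0.39, not called (limma adjusted p = 0.161), and without its array 4 by -0.64 (limma adjusted p = 0.00435).

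The other 2 Tet1 probe sets disagreed with it. Double knockout against wild type gave differences of 0.30 for probe set 10369702 (limma adjusted p = 0.1) and 0.18 for 10369690 (limma adjusted p = 0.156). Both lay below the median level of 5.27 over tested probe sets, at means of 4.94 and 4.53 over the 16 arrays, and the exons read by the 3 probe sets are not given with the values. The statement on Tet1 therefore rests on 1 of 3 probe sets.

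Tet2 read 6.07, 6.26, 6.18 and 6.01 in the double knockout, against 6.36, 6.51, 6.59 and 6.36 in wild type, with no overlap. It dropped to 79.7% of the wild-type level (-0.33 ± 0.10, limma adjusted p = 0.02). This call was lost without double knockout array 4 (-0.29, limma adjusted p = 0.0623) and without wild-type array 3 (-0.28, limma adjusted p = 0.0661). Hdac1 knockout arrays spanned 6.26 to 6.65 and Hdac2 knockout arrays 6.12 to 6.64, and both overlapped with the double knockout. The double knockout differed from them by -0.27 and -0.24, not called (limma adjusted p = 0.054 and 0.0961). With each array centred on its median both differences were called (limma adjusted p = 0.0118 and 0.0313).

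Tet3, the TET enzyme stored in the egg and active in the zygote, fell by both of its probe sets. Probe set 10545682 read 10.62, 10.42, 10.37 and 10.39 in the double knockout, 10.94, 10.81, 10.81 and 10.85 in Hdac1 knockout, 10.80, 10.87, 10.83 and 10.73 in Hdac2 knockout, and 10.70, 10.80, 10.80 and 10.73 in wild type. All double knockout arrays lay below all other arrays, and the same held for probe set 10545692, which spanned 8.67 to 8.80 in the double knockout, 8.96 to 9.15 in Hdac1 knockout, 8.89 to 9.21 in Hdac2 knockout and 8.97 to 9.13 in wild type. The falls from wild type were -0.30 ± 0.06 and -0.35 ± 0.07 (limma adjusted p = 0.000699 and 0.000548), to 81.1% and 78.6% of the wild-type level. Both are below the 1.4-fold change named in the design of the study. Against the Hdac2 knockout the falls were -0.36 and -0.35 (limma adjusted p = 0.000231 and 0.000713).

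Tdg, the glycosylase that removes oxidised methylcytosine, rose in both genotypes that lack Hdac2. Its brightest probe set (10430871) read 5.10, 4.72, 5.34 and 4.765 in the double knockout, 4.27, 4.45, 4.32 and 4.56 in Hdac1 knockout, 5.06, 4.86, 4.61 and 5.22 in Hdac2 knockout, and 4.27, 4.23, 4.32 and 4.20 in wild type. All 8 arrays of the double and Hdac2 knockouts lay above all 8 of the Hdac1 knockout and wild type. The rise was 0.73 ± 0.13 in the double knockout, or 1.66-fold (limma adjusted p = 0.000328), and 0.68 ± 0.13 in the Hdac2 knockout, or 1.61-fold (limma adjusted p = 0.00688). These knockouts differed from each other by 0.04 with a 95% interval of -0.24 to 0.328. Tdg differed from wild type by 0.15 in the Hdac1 knockout, with an interval of -0.137 to 0.430.

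The other 3 Tdg probe sets moved with the first, by 0.76, 0.61 and 0.73 in the double knockout and 0.72, 0.59 and 0.69 in the Hdac2 knockout, all called. The Hdac2 knockout call of probe set 10564663 (0.59, limma adjusted p = 0.0205) was lost in 4 of the 8 fits that each left out 1 array, without Hdac2 knockout array 1 or 4 or wild-type array 1 or 4, with adjusted p up to 0.0707. Within an array the 4 probe sets, each set relative to its own mean, lay at most 0.198 apart while the arrays spanned 1.14, so they are not independent readings. All 4 lay below the median level of tested probe sets. RefSeq also lists the near copies Tdg-ps2 on chromosome 10 and Tdg-ps on chromosome 15, so which of these transcripts the probes read is uncertain.

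**Figure D3:**
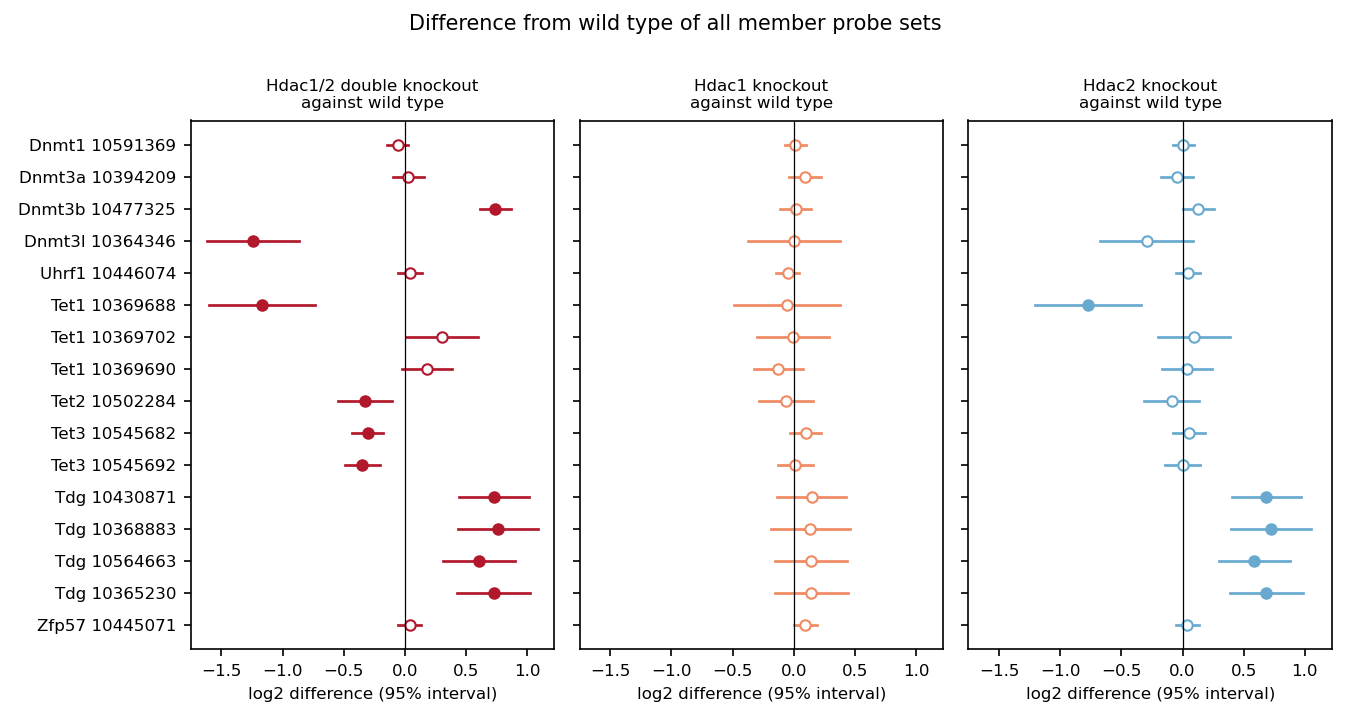
Log2 difference from wild type (horizontal axis, with limma's 95% interval as the bar) of the 16 member probe sets, named by gene and probe set, in the double, Hdac1 and Hdac2 knockouts; filled points were called. In the double knockout 10 probe sets are filled, in the Hdac1 knockout 0, and in the Hdac2 knockout 5, which are the 4 Tdg probe sets to the right and the brightest Tet1 probe set to the left.

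In the Hdac1 knockout 0 of 16 member probe sets were called against wild type by limma, where 0.0707% of all tested were. Of the members 0 had an unadjusted p under 0.05, and 0 were called with limma's variance trend and robust estimate. Deletion of Hdac2 gave 5 of 16 called, 4 higher and 1 lower, where 5.59% of all were called, 2.86% higher and 2.74% lower. These 5 probe sets are 2 genes, Tdg and Tet1, and among the 10 members above the median level 1 was called, where 12.5% of such probe sets were. After centring on array medians the split over all probe sets in the Hdac2 knockout was 443 higher and 763 lower, against 606 and 581 as deposited, and the members' calls stayed at 4 higher and 1 lower. The Hdac1 and Hdac2 knockouts differed in 4 member probe sets, with Tet1 higher by 0.72 in the Hdac1 knockout (limma adjusted p = 0.0481) and 3 of the 4 Tdg probe sets lower there, where 5.78% of all were called (2.81% higher and 2.96% lower). That count was 0 without Hdac1 knockout array 1 or 3, and without Hdac2 knockout array 1 or 4.

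Tet1, Tdg and Dnmt3l lie on chromosome 10, which also carries Hdac2, while Hdac1 lies on chromosome 4. Of 984 tested probe sets on chromosome 10, 60 were called in the Hdac2 knockout, or 6.1%, beside 5.59% over all chromosomes. The part of linkage to the Hdac2 allele in the changes of these genes was not tested.

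Set against the single knockouts, the double knockout differed from the Hdac1 knockout in 10 member probe sets, 6 higher and 4 lower, where 38.7% of all were called (18.7% higher and 20.1% lower). Those were Dnmt3b, 4 Tdg probe sets and Tet1 10369690 (0.31, limma adjusted p = 0.0173) among the higher, and Dnmt3l, Tet1 10369688 and both Tet3 probe sets among the lower. The Tet1 10369690 call was lost after centring on array medians (0.23, limma adjusted p = 0.0685), with quantile normalization (0.22, 0.079) and without double knockout array 4 (0.24, 0.066). The call of Tdg 10564663 was lost without double knockout array 3 (0.37, limma adjusted p = 0.0512) or Hdac1 knockout array 1 (0.37, 0.0519). Centring gave 5 members higher and 7 lower, with Dnmt1, Tet2 and Zfp57 added to the lower, and 3066 higher and 6238 lower over all probe sets, against 3964 and 4256 as deposited. From the Hdac2 knockout it differed in 4, Dnmt3b higher and Dnmt3l and both Tet3 probe sets lower, where 33.7% of all were called (16.8% higher and 16.9% lower). Here centring gave 1 member higher and 5 lower, with Dnmt1 and Tet2 added, and 2734 higher and 4941 lower over all, against 3566 and 3589. Among the 10 members above the median level, 6 were called against the Hdac1 knockout and 4 against the Hdac2 knockout. Of all such probe sets 62.5% and 55% were called. The calls against the Hdac1 knockout here include Tet2 (limma adjusted p = 0.0371 in the fit of bright probe sets alone). These comparisons share arrays with one another and with those against wild type.

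An interaction term asked whether deleting both genes gave a log2 change other than the Hdac1 and Hdac2 changes added up. It was called for 4 member probe sets, 1 positive and 3 negative, where 23.3% of all were called (11.7% positive and 11.6% negative), or 42% of those above the median level. Dnmt3b stood 0.60 ± 0.08 above the sum of the single changes (limma adjusted p = 9.32e-05). Dnmt3l departed from it by -0.95 ± 0.25 (limma adjusted p = 0.0116), and the Tet3 probe sets departed by -0.45 ± 0.09 and -0.36 ± 0.10 (limma adjusted p = 0.00108 and 0.0113). For Tdg the sum of the single changes was 0.73 to 0.86 and the double knockout change 0.61 to 0.76, with interactions of -0.12 to -0.10 that were not called. Tet1 10369688 had a sum of -0.83 and a double knockout change of -1.17 (limma adjusted p of the interaction 0.452).

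**Figure D4:**
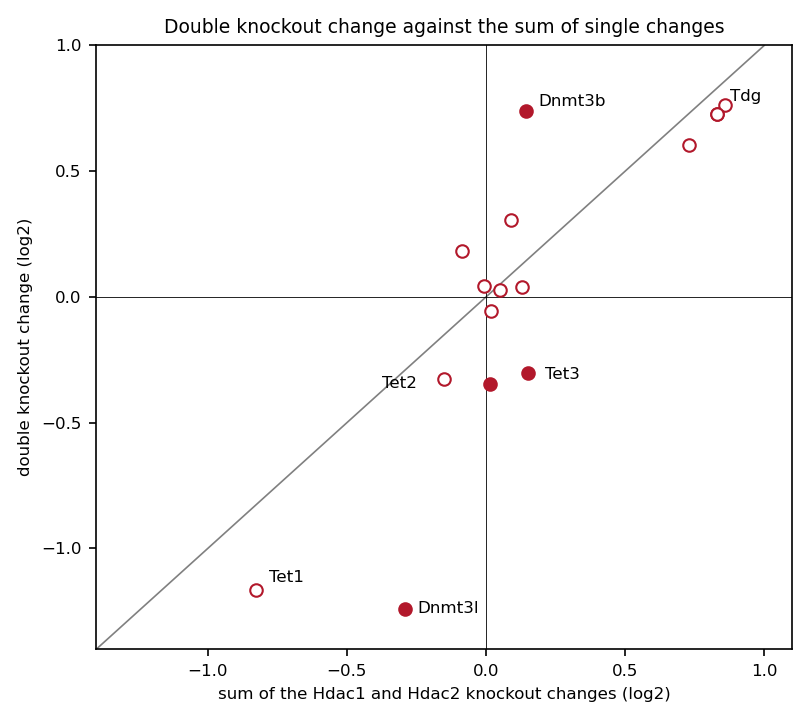
Log2 change of each member probe set in the double knockout (vertical axis) against the sum of its Hdac1 and Hdac2 knockout changes (horizontal axis), each from wild type; the diagonal marks equal values and filled points were called for the interaction. Dnmt3b lies at 0.74 over a sum of 0.15, Dnmt3l at -1.24 against -0.29 and Tet3 near -0.30 and -0.35 against sums at or above 0, while the Tdg points lie close to the diagonal.

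Other genes of the pathway were read in 6 lists of 68 genes, of which 60 had a probe set with 1 symbol. In the double knockout 13 were higher and 17 lower, 50% of those measured, beside 38.3% of all tested probe sets. Among those above the median level 29 of 47 were called, 61.7%, the same share as over all bright probe sets. In the Hdac1 knockout 0 of the 60 were called by limma and 6 had an unadjusted p under 0.05. With the variance trend and robust estimate 0 were called. Loss of Hdac2 alone left 2 higher and 3 lower, 8.33%, beside 5.59% of all, and among the bright ones 6 of 47, beside 12.5% of all.

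In the list of readers of methylated CG sites and related proteins 2 of 7 measured genes rose and 1 fell in the double knockout. That is 42.9%, where 38.3% of all tested probe sets were called and 61.7% of those above the median level. Uhrf2, a relative of UHRF1, averaged 7.71 ± 0.26 in the double knockout and 7.21 ± 0.08 in wild type (SD, n = 4 arrays each), higher by 0.50. Mbd2, which links methylated DNA to a deacetylase complex, was higher by 0.48, and Zbtb33 (Kaiso) fell by 0.61. In Hdac2 knockout oocytes Mbd3, of the same deacetylase complex family, rose by 0.29 (limma adjusted p = 0.0334) and Zbtb38 fell by 0.46 (limma adjusted p = 0.0165). Mbd3 differed from wild type by 0.12 in the double knockout and by 0.34 in the Hdac1 knockout, neither called (limma adjusted p = 0.235 and 0.141). The median of the list in the double knockout was 0.0979, beside -0.0102 over all tested probe sets.

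Of 8 partners of maintenance and imprint protection 2 rose and 1 fell in the double knockout, 37.5%, beside 38.3% of all tested probe sets. Trim28, the corepressor that ZFP57 recruits, rose by 0.22 (limma adjusted p = 0.0197), Pcna, the replication clamp, rose by 0.22 (limma adjusted p = 0.00164), and Usp7, a deubiquitinase that binds DNMT1 and UHRF1, fell by 0.19 (limma adjusted p = 0.00269). Cdca7 differed by -0.27 and was not called (limma adjusted p = 0.0505). The list median was 0.0534.

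Histone methylation enzymes that shape methylation of oocyte DNA in mouse moved in both directions, 2 of 7 higher and 3 lower, with a median of -0.147. The share called was 71.4%, beside 38.3% of all tested probe sets and 61.7% of those above the median level. Nsd1, a methyltransferase for H3K36, averaged 8.995 ± 0.06 in the double knockout and 9.60 ± 0.09 in wild type (SD, n = 4 arrays each) and fell by 0.61 (limma adjusted p = 9.05e-07). Setd2, which lays down trimethylation of the same residue, fell by 0.42 by its brighter probe set and by 0.41 by the other. Kdm1b, the H3K4 demethylase needed for imprints in mouse oocytes, fell by 0.15 (limma adjusted p = 0.0283), and its relative Kdm1a rose by 0.27 (limma adjusted p = 0.000241).

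The list of base excision repair and deamination held the largest changes of the 6, with 4 of 16 measured genes higher and 4 lower and a median of 0.0414. Its share called in the double knockout was 50%, beside 38.3% of all tested probe sets and 61.7% of those above the median level. Gadd45b, a stress response gene of the GADD45 family that has been linked to active demethylation, averaged 6.54 ± 0.26 in the double knockout and 4.85 ± 0.24 in wild type (SD, n = 4 arrays each), 3.23-fold higher (limma adjusted p = 7.27e-08). Gadd45g was 2.69-fold higher and Gadd45a, of the same family, fell by 0.60 (limma adjusted p = 6.39e-06 and 0.000204). Neil3, a glycosylase for oxidised bases, averaged 8.52 ± 0.15 in the double knockout and 9.68 ± 0.11 in wild type and fell by 1.16 (limma adjusted p = 2.26e-08), and in the Hdac2 knockout it fell by 0.46 (limma adjusted p = 0.00493). Neil2 fell by 0.38 in the double knockout and by 0.31 in the Hdac2 knockout (limma adjusted p = 0.00235 and 0.0487).

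Of 9 TET partners and enzymes that supply 2-oxoglutarate 1 rose and 4 fell, with a median of -0.16. That is 55.6% called in the double knockout, beside 38.3% of all tested probe sets and 61.7% of those above the median level. Cxxc5, a CXXC protein that interacts with TET2, averaged 5.61 ± 0.10 in the double knockout and 4.52 ± 0.28 in wild type (SD, n = 4 arrays each), 2.13-fold higher (limma adjusted p = 8.94e-07). Dcaf1, Cul4a and Cul4b, subunits of the CRL4 ubiquitin ligase that acts on TET enzymes in mouse oocytes, fell by 0.59, 0.49 and 0.21 (limma adjusted p = 1.2e-05, 2.22e-05 and 0.00234).

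In the methionine and folate cycle, which supplies the methyl donor, 2 of 13 measured genes rose and 4 fell, with a median of -0.107. The share called in the double knockout was 46.2%, beside 38.3% of all tested probe sets and 61.7% of those above the median level. Ahcy, which clears the product of methyl transfer, rose by 0.54 in the double knockout and by 0.31 in the Hdac2 knockout (limma adjusted p = 2.77e-06 and 0.0072), and its other 2 probe sets were called in both. Mtrr and Mthfd1 fell by 0.61 and 0.48 in the double knockout. Shmt2 rose by 0.43 by its brighter probe set, while the other differed by -0.03 (limma adjusted p = 0.881).

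**Figure D5:**
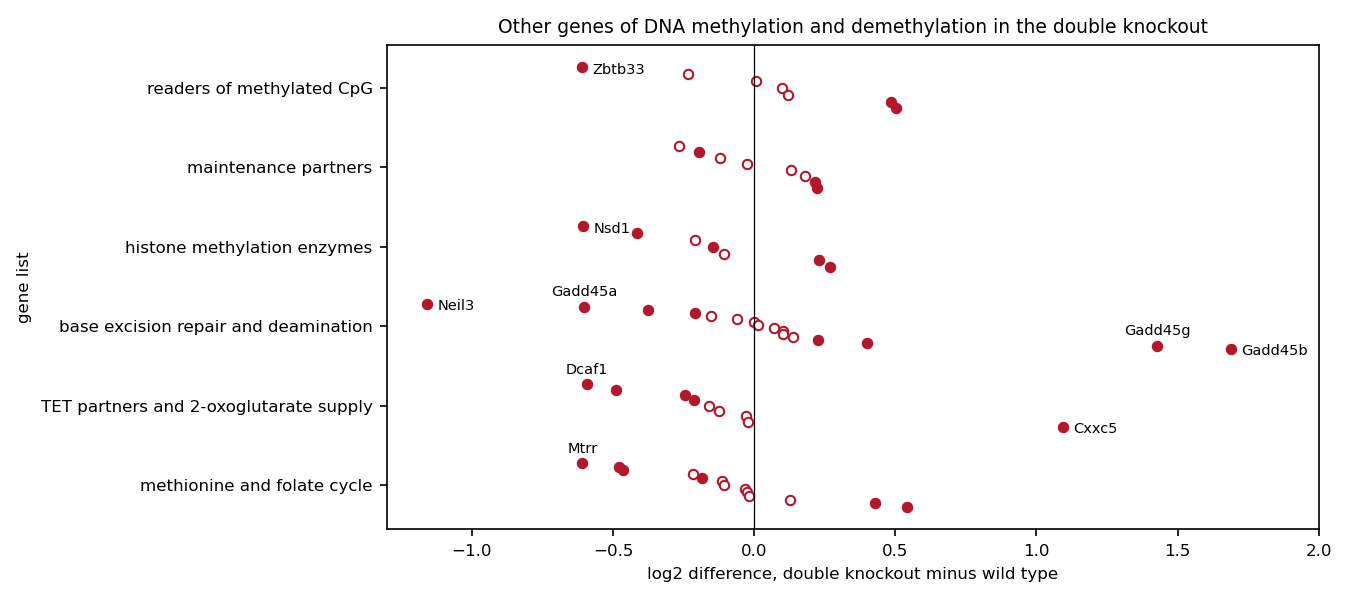
Log2 difference of the double knockout from wild type (horizontal axis) for the 60 measured genes of the 6 lists (rows, points spread vertically for legibility), with filled points called and those of at least 0.55 in size named. The points spread to both sides in each list, Gadd45b (1.69), Gadd45g (1.43) and Cxxc5 (1.09) lie furthest right and Neil3 (-1.16) furthest left.

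For each called member the most similar genes were those with the smallest root mean square distance over the 16 arrays, after each was set relative to its wild-type mean. For Dnmt3b these were Rpl9, Cluh and Map7d3, at 0.064, 0.083 and 0.0846 on the log2 scale. For Dnmt3l they were Samd7, Nrp1 and Scml2 at 0.137 to 0.146, and for Tet1 Pgap1, Lef1 and Krt12 at 0.257 to 0.271. Tet2 was nearest to Dnajc13 (0.097), Scfd1 and Myo5a (0.103 each). The Tet3 probe sets were nearest to Ccdc6, Osbpl2 and Rere (0.0374 to 0.0509) and to Exosc3, Lrp6 and Rhot1 (0.0635 to 0.075). All 4 Tdg probe sets were nearest to Bmp7, at 0.156 to 0.189. The distance is smaller for genes with small changes, so it does not rank members against each other.

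The oocyte markers, such as the zona genes and Gdf9, were all above the median level in each genotype, 12 of 12, and of them 1 rose and 4 fell in the double knockout. Beside these and the other marker lists, 38.3% of all tested probe sets were called there, and 61.7% of those above the median level. Sohlh1, an early oocyte transcription factor, rose by 1.08, Figla, Ddx4, Dazl and Kit fell by 0.56, 0.32, 0.17 and 0.17, and the zona genes and Gdf9 were not called (limma). The oocyte markers had a summed linear level of 32320 to 32860 in the double knockout, 33360 to 33800 in Hdac1 knockout, 32490 to 33210 in Hdac2 knockout and 33130 to 34430 in wild type. The 9 measured granulosa cell markers summed to 660.5 to 706.4 in the double knockout and 1044 to 1143 in wild type, of which 2 rose and 2 fell. Gja1 and Inha rose by 0.74 and 0.59, Kitl fell by 0.37, and Nr5a2, which carried most of that sum, fell by 1.07, while Foxl2, Amh and Fshr stayed under 5 on the log2 scale in all genotypes. The 9 theca and stroma markers summed to 148.1 to 152.2 in the double knockout and 141.1 to 147.8 in wild type, with 0 above the median level, and Acta2 rose by 0.31. Blood, immune and endothelial markers, 7 measured, summed to 227.6 to 279.7 in the double knockout and 427.9 to 485.3 in wild type. Pecam1, which carried most of the wild-type sum, fell by 1.37. Cd68 rose by 0.38, and Ptprc, Adgre1, Csf1r, Lyz2 and Cdh5 stayed under 4 on the log2 scale. The part of these shifts in the members' changes was not tested. Array medians lay between 4.46 and 4.59, and arrays of a genotype correlated at 0.992 to 0.995 over all probe sets.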

How the data were processed

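The deposited table holds 1 normalized log intensity for each of 35556 probe sets and 16 arrays, made by the authors. MAS5 was used per the submitters' processing notes, and the design text of the series also names GeneSpring 7, SAM and EASE with a 1.4-fold limit. How these were combined is not stated in the labels. The base of the deposited log values is not stated and was taken as log2, because the highest value, 12.89, stands for an intensity of 7566 with base 2 and of 394439 with base e. All fold changes rest on that. No further scaling was applied.

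Gene names are those of the platform annotation. Several symbols were given for 1881 probe sets and none for 12457, and these were not tested. By gene identifier 21185 of the 21218 tested matched RefSeq, which changed 0 symbols. The fit used limma 3.58.1 in R 4.3.3 (lmFit with a mean per genotype, contrasts, eBayes, 12 residual degrees of freedom), two-sided, and was tested on simulated data. SE are limma's and SD are over 4 arrays. For lists, a gene with several probe sets is represented by the brightest. Named list genes are the 4 of each list with the lowest adjusted p for double knockout against wild type, plus up to 2 called in each single knockout. Likeness took the 3 nearest genes, provisional symbols left out. Members and lists were chosen with earlier results of these data known. Of the 68 genes of the lists, 8 were not analysed here, nor were 4 of the marker genes. The number of arrays limits the precision. Samples are called biological replicates in the labels, which give no batch or scan date. Alternatives were array centring, quantile normalization, leaving out dim probe sets, all probe sets tested and a 1.4-fold limit. Others were 2-group fits, a variance trend with limma's robust estimate of spread, a replicate block and leaving out each array.

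Whether the replicate numbers pair arrays across genotypes was checked by correlating deviations from the genotype mean. The 24 pairs of same-numbered arrays gave -0.148 to 0.0866, with 0 over 0.1, so the numbers were not used as pairs in the main fit.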

Additional observations from a re-analysis of the deposited data

Results flagged for a closer look

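Of 64 groups of 4 arrays, each a member probe set in 1 genotype, 3 held an array that stood apart by Dixon's gap test, all in the double knockout, and chance alone gives about 1 in 20 such groups. For Dnmt1 double knockout array 3 read 12.18, next to 12.23. For Dnmt3l double knockout array 3 read 5.405, next to 6.285, and without it the difference from wild type was -1.005 with the call kept. For Tet3 probe set 10545692 double knockout array 2 read 8.799, next to 8.682, and without it the fall from wild type was larger, -0.377.

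The effect of deleting one deacetylase gene differed by the state of the other for 4 of the 16 member probe sets by limma's interaction test, where it did for 23.3% of all tested probe sets. Dnmt3b departed from the sum of the single changes by 0.5959, Dnmt3l by -0.9485, and Tet3 by -0.4536 (10545682) and -0.3614 (10545692). Each was called in the 16 fits that left out 1 array.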

How the results depend on the processing

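No member's direction was reversed among called values under any alternative tried. With probe sets below the median level left out, fewer member probe sets were called in some comparisons. The count was 6 in the double knockout and 1 in the Hdac2 knockout against wild type. It was 6 in the double against the Hdac1 knockout and 1 in the Hdac1 against the Hdac2 knockout. Of the 16, 6 were no longer tested, the 4 Tdg and 2 of the Tet1 probe sets. Tet2 was gained in the double against the Hdac1 knockout (-0.27, limma adjusted p = 0.0371, against 0.054 in the main fit). A limit of 1.4-fold gave 2 in the double against the Hdac2 knockout and 2 for the interaction, losing both Tet3 probe sets each time. In the double against the Hdac1 knockout it gave 6, losing both Tet3 probe sets, Tet1 10369690 (0.31) and Tdg 10564663 (0.46). For the Hdac1 against the Hdac2 knockout, testing all 35556 probe sets gave 0 and the fit with the replicate block gave 1, against 4. The block also ended the Tet1 call in the Hdac2 knockout (-0.77, limma adjusted p = 0.0681), as did testing all probe sets (0.068). The labels do not say whether the replicate numbers pair arrays, and same-numbered arrays gave correlations of -0.148 to 0.0866. The block was therefore kept as an alternative only. Leaving out each array in turn gave 9 to 10 in the double knockout, 0 to 0 in the Hdac1 knockout, 3 to 5 in the Hdac2 knockout (3 without its array 1 or 4 or wild-type array 1), 9 to 11 and 4 to 6 for the double against the Hdac1 and the Hdac2 knockout, 0 to 4 between the single knockouts, and 4 to 4 for the interaction. The pathway count in the Hdac2 knockout, 5, was 3 with all probe sets tested and 3 to 4 with 1 array left out. The Hdac1 difference in the Hdac2 knockout ranged over 0.321 to 0.397 and 0.313 to 0.383 for its 2 probe sets with 1 array left out, and lost its call in 2 and 3 of 8 fits. The 6 member probe sets below the median level of 5.27 have no detection calls in the table used here, so whether they stood above background is not known.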

Other observations

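The rule for named genes left 7 called genes of the 6 pathway lists unnamed, and they are given here as values, chosen after they were seen. Of these, 4 fell in the double knockout. Ogt, the glycosyltransferase that binds TET proteins, fell by 0.24 (limma adjusted p = 0.00302), Lig3, a DNA ligase of base excision repair, by 0.21 (0.00275), and the methionine adenosyltransferase subunits Mat1a and Mat2b by 0.47 and 0.19 (0.00178 and 0.00481). The deaminase family member Apobec2 rose by 0.40 (limma adjusted p = 0.00579), the glycosylase Neil1 by 0.23 (0.0165) and the H3K9 methyltransferase Ehmt2 by 0.23 (0.0457). Dppa3, which protects the maternal genome from demethylation in the mouse zygote, differed by 0.18 by its brighter probe set (limma adjusted p = 0.0831) and was called at 0.14 by the other (0.0167).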
